A study of Homo sapiens with 6 samples.

Results

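The circadian clock genes described here are ARNTL, CLOCK, PER1, PER2, PER3, CRY1, CRY2, BHLHE40, BHLHE41 and NR1D1, chosen by their symbols from the 26334 gene symbols of the count table. All 10 symbols were present, and all 10 passed the filter on low counts that left 13659 genes for the fit. The choice was made with the counts and fold changes of ZEB1-KO against WT clones known, so the values of these genes in that contrast are given as a description. No p-value of a member is printed, and counts of members called appear only beside the share of all genes called.

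RNA was measured in 6 libraries from MiaPaCa2, a human cell line of pancreatic ductal adenocarcinoma, prepared by SMART-Seq2 from 2000 cells each (cDNA is primed on poly(A) tails and amplified). The ZEB1-KO group held 3 clones grown from cells sorted for GFP once they had received, by electroporation, a Cas9 and GFP plasmid with a guide against ZEB1, the gene of a zinc-finger factor that represses epithelial genes. The WT group held 3 clones obtained in the same way with the parent plasmid px458, with no ZEB1 guide named, so both groups had been through the plasmid, the sort and growth from selected cells. Both were grown in DMEM with 10% serum and each replicate is 1 clone, which means that a difference between single clones and an effect of the deletion are separated only as far as 3 clones allow. The labels give no time of harvest and no synchronisation of the cultures, and each clone was sampled once, so the phase or rhythm of the clock was not measured.

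The clock is a feedback loop of transcription. The proteins of ARNTL (also called BMAL1) and CLOCK pair and activate genes that carry the E-box, a short DNA motif, among them the PER and CRY genes. The PER and CRY proteins return to the nucleus and inhibit that pair, BHLHE40 (DEC1) and BHLHE41 (DEC2) compete for the same E-boxes as repressors, and NR1D1 encodes REV-ERB-alpha, a nuclear receptor that represses ARNTL. BHLHE40, PER1 and NR1D1 are also known to respond to serum, hormones and other signals outside the loop.

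Across the 10 genes, 2 repressors of the same family differed between the groups in opposite directions. BHLHE41 was lower in ZEB1-KO clones and BHLHE40 was higher, while NR1D1 was higher and PER2 was higher by less. PER1, ARNTL, CLOCK, CRY1, CRY2 and PER3 lay within overlapping ranges in CPM (counts-per-million of the scaled library size). Because reads were counted in bulk, fewer cells with a transcript and less transcript per cell cannot be told apart.

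**Figure D1:**
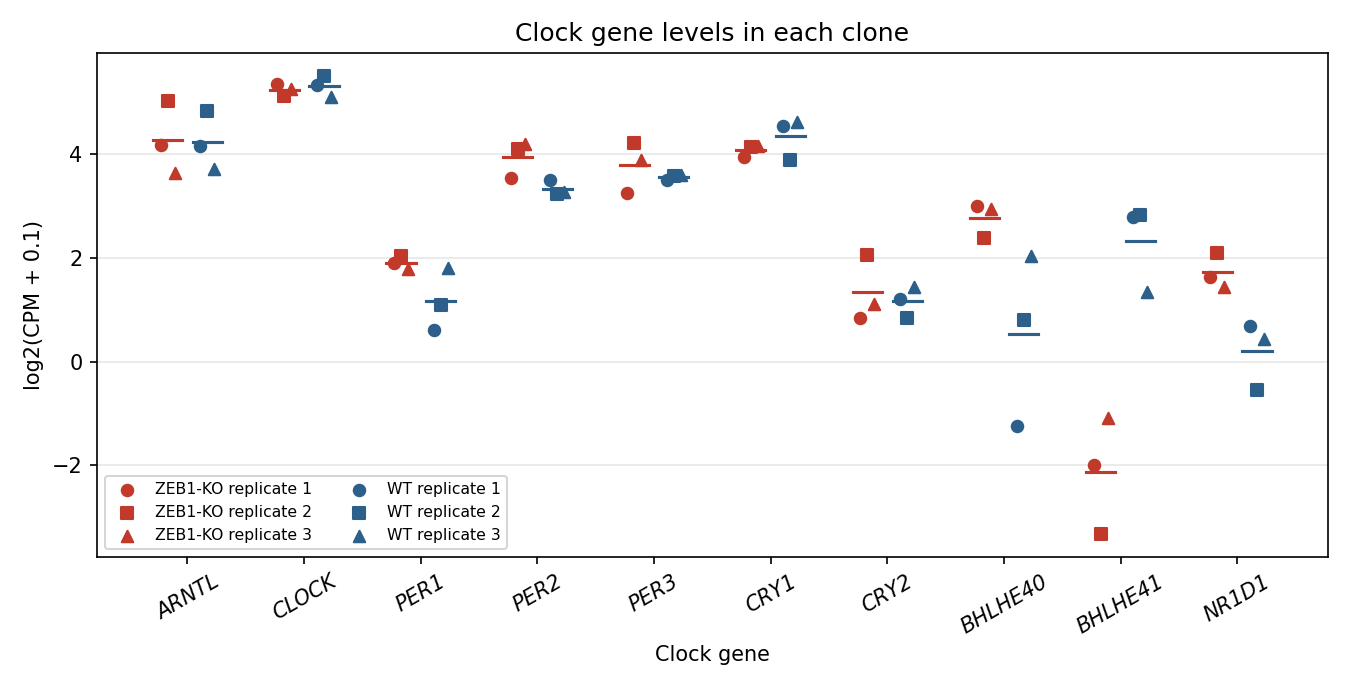
Level of each clock gene in each clone as log2(CPM + 0.1), with ZEB1-KO clones left (red) and WT clones right (blue) for each gene. Horizontal bars are means of the 3 log2 values. BHLHE41 lies between 0 and 0.374 CPM in ZEB1-KO clones and between 2.43 and 7.0 CPM in WT clones, and BHLHE40 shows the opposite order.

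The stretches of DNA before the starts of BHLHE41, BHLHE40 and PER1 are printed. These were the only members whose RefSeq promoter windows held the letters CACGTG, the only form of the clock's E-box that was searched. Each run gives the 250 bases before the annotated start on the gene's own strand, from RefSeq (GRCh38.p14), with CACGTG and, in BHLHE41, the ZEB1-type E-box CAGGTG in capitals. These coordinates are of another build than that named for the counts and were not used with them.
BHLHE41 (chr12:26125038-26125287, minus strand): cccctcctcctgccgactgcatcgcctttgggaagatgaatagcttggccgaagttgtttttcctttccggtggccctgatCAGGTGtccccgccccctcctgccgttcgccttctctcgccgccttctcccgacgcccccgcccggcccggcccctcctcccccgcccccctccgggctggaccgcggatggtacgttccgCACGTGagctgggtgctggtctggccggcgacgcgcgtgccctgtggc
BHLHE40 (chr3:4979187-4979436, plus strand): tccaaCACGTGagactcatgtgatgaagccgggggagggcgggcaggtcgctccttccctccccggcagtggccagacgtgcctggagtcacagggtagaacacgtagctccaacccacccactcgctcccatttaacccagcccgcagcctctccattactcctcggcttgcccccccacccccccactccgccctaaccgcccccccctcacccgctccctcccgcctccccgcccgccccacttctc
PER1 (chr17:8152405-8152654, minus strand): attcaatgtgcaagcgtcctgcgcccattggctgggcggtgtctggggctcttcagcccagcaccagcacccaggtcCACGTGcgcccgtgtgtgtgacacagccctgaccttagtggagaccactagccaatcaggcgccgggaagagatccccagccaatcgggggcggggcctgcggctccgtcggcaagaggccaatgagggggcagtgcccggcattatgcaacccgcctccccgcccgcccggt

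Windows of 300 bases, from 250 before to 50 after a start, were found for all 10 genes, 14 windows in all. The E-box CACGTG, which is its own reverse complement, began at position -48 relative to the start in BHLHE41, -245 in BHLHE40 and -173 in PER1. It was present in 7.26% of the 35116 windows of that length. The ZEB1-type E-box, CAGGTG or CACCTG on the other strand, began at position -169 in BHLHE41, and was also found in 1 of the 2 windows of PER3, at -55, and in 1 of the 2 windows of CRY2, at -144, against 20.6% of all windows. AGGTCA, the half-site that REV-ERB and ROR receptors read (TGACCT on the other strand), was found in windows of ARNTL, PER1 and CRY2, against 13.8% of all windows. Only these exact letters were searched, so a window without a match can still hold variant forms of these motifs. A match describes letters and does not show that a factor binds there.

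ZEB1 transcript, which checks the labels, was at 6.10 CPM ± 4.67 in ZEB1-KO clones and 32.9 CPM ± 1.54 in WT clones (SD, n = 3 each), and ZEB1-KO replicate 3 kept the most, at 11.5 CPM. The groups did not overlap, but ZEB1 itself was not called (adjusted p = 0.0930, edgeR's quasi-likelihood test). Total counts ran from 18909305 to 36798770 in ZEB1-KO libraries and from 26242238 to 42876693 in WT libraries, so that a floor of 3 counts stood at 0.0687 to 0.150 CPM. Floors cover counting error only, since amplified reads carry no molecular identifiers. The 4 markers of an epithelial tumour line that also expresses vimentin (KRT8, KRT18, KRT19 and VIM) summed to 5406 to 7215 CPM in ZEB1-KO and 5932 to 6768 CPM in WT clones. Within that sum KRT8 was at 1940 CPM in ZEB1-KO and 817 CPM in WT clones, and VIM was at 1636 CPM in ZEB1-KO and 3538 CPM in WT clones, each without overlap and in opposite directions (adjusted p = 0.0635 and 0.105, edgeR's quasi-likelihood test). Of 12 markers of blood, endothelial, fibroblast, acinar and islet cells, 7 to 9 were at 0 counts in each ZEB1-KO library and 9 or 10 in each WT library. Their sum was 3.51 to 7.19 CPM in ZEB1-KO and 1.99 to 3.96 CPM in WT clones, most of it CD68, and CD3E, DCN, LUM, AMY2A, INS and GCG were at 0 in all libraries.

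BHLHE41, a basic helix-loop-helix repressor that binds E-boxes, had 3, 0 and 12 counts in the ZEB1-KO clones (replicates 1, 2 and 3), against 296, 227 and 60 counts in the WT clones (in the same order). As CPM these were 0.150, 0 and 0.374 in ZEB1-KO clones and 6.78, 7.0 and 2.43 in WT clones, where the count of 0 in ZEB1-KO replicate 2 allows up to 0.0741 CPM. Every ZEB1-KO clone lay below every WT clone, and the lowest WT clone, replicate 3, stood apart from the other two. The log2 fold change of ZEB1-KO over WT was -4.96 ± 0.96 (SE). Without ZEB1-KO replicate 3 it was -6.51, a value that rests on the 3 and 0 counts of ZEB1-KO replicates 1 and 2. Without ZEB1-KO replicate 2 it was -4.29. SSPN, the sarcospan gene, overlaps BHLHE41 on the opposite strand in GENCODE 29, and the method does not record strand. SSPN had 3, 16 and 77 counts in the ZEB1-KO clones (replicates 1, 2 and 3) and 217, 99 and 76 counts in the WT clones (in the same order), and differed by -1.89 ± 0.82 (SE) on the log2 scale (adjusted p = 0.282, edgeR's quasi-likelihood test). Its part in the BHLHE41 counts was not tested.

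BHLHE40, the close relative of BHLHE41, had 159, 206 and 243 counts in the ZEB1-KO clones (replicates 1, 2 and 3), against 14, 53 and 98 counts in the WT clones (in the same order). Its level was 7.93, 5.09 and 7.56 CPM in ZEB1-KO clones and 0.321, 1.63 and 3.97 CPM in WT clones. The groups did not overlap, though the lowest ZEB1-KO clone and the highest WT clone were close, and the WT clones spread more widely than the ZEB1-KO clones. The log2 fold change was 1.81 ± 0.73 (SE). It was 1.31 without WT replicate 1 and 2.83 without WT replicate 3, so that single WT clones set its size. The antisense gene BHLHE40-AS1 had at most 4 counts in any library.

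The balance of the pair was compared within each library on the authors' TPM scale, which corrects for gene length. BHLHE41 made up 1.49%, 0% and 3.81% of the summed BHLHE40 and BHLHE41 TPM in ZEB1-KO replicates 1, 2 and 3, against 94.4%, 77.5% and 32.9% in WT replicates 1, 2 and 3. BHLHE40 was thus the larger of the pair in all 3 ZEB1-KO clones and also in WT replicate 3. The sum of both genes was 4.31, 3.09 and 4.30 TPM in ZEB1-KO clones and 2.94, 3.10 and 2.73 TPM in WT clones. These summed levels overlapped, at the lowest ZEB1-KO clone and the highest WT clone, although the composition did not. Within the WT group alone, the clone with the most BHLHE40 (replicate 3) had the least BHLHE41. The clone with the least BHLHE40 (replicate 1) had the most BHLHE41 in TPM, but not in CPM. There BHLHE41 was at 6.78 in WT replicate 1 and 7.0 in WT replicate 2. This is a description over 3 clones that does not use the contrast between groups.

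**Figure D2:**
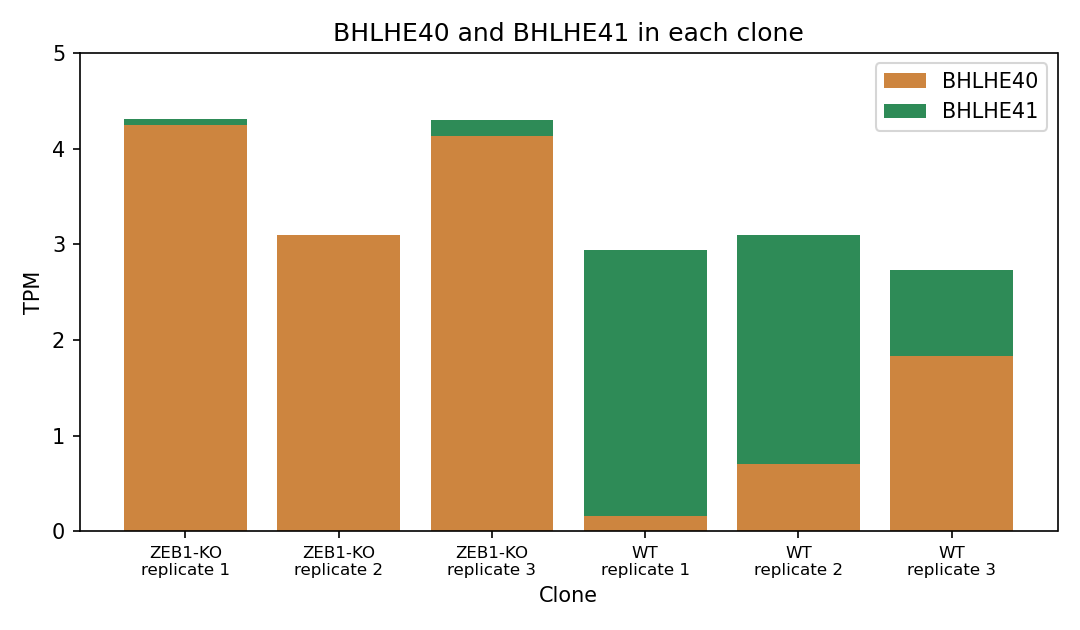
Stacked bars of BHLHE40 (orange) and BHLHE41 (green) in TPM for each clone, ZEB1-KO clones left and WT clones right. The total bar heights run from 3.09 to 4.31 TPM in ZEB1-KO and from 2.73 to 3.10 TPM in WT clones, while the BHLHE41 part is at most 3.81% in ZEB1-KO clones and at least 32.9% in WT clones.

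NR1D1, which encodes the REV-ERB-alpha repressor of ARNTL, had 60, 169 and 84 counts in the ZEB1-KO clones (replicates 1, 2 and 3), against 66, 19 and 31 counts in the WT clones (in the same order). Scaled for depth, these were 2.99, 4.17 and 2.61 CPM in ZEB1-KO clones and 1.51, 0.586 and 1.26 CPM in WT clones. All ZEB1-KO clones lay above all WT clones, although the raw counts of ZEB1-KO replicate 1 and WT replicate 1, from libraries of unequal depth, were alike. The log2 fold change was 1.54 ± 0.44 (SE), and between 1.24 and 1.85 when any 1 library was left out. NR1D1 overlaps THRA, the thyroid hormone receptor alpha gene, on the opposite strand. THRA had 41, 94 and 47 counts in ZEB1-KO clones and 92, 73 and 69 counts in WT clones, and differed by -0.29 ± 0.35 (SE) on the log2 scale (adjusted p = 0.694, edgeR's quasi-likelihood test). Its part in the NR1D1 counts was not tested.

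The PER genes encode the inhibitors whose accumulation delays the loop. PER2 was at 11.5, 16.9 and 18.1 CPM in ZEB1-KO replicates 1, 2 and 3 and at 11.2, 9.28 and 9.52 CPM in WT replicates 1, 2 and 3. The groups did not overlap, but ZEB1-KO replicate 1 and WT replicate 1 differed by little. The log2 fold change of PER2 was 0.63 ± 0.26 (SE), and lay between 0.51 and 0.81 when any 1 library was left out. PER1, which hormonal and cAMP signals also induce, was at 3.64, 3.98 and 3.36 CPM in ZEB1-KO clones and at 1.42, 2.04 and 3.40 CPM in WT clones. WT replicate 3 lay within the ZEB1-KO range, and the ZEB1-KO clones were close to one another. Its log2 fold change was 0.69 ± 0.39 (SE), with 0.45 once WT replicate 1 was left out and 1.09 once WT replicate 3 was. PER3 was at 9.38, 18.4 and 14.7 CPM in ZEB1-KO clones and at 11.2, 11.8 and 12.0 CPM in WT clones, a log2 fold change of 0.29 ± 0.29 (SE), with a range of 0.05 to 0.51 when any 1 library was left out. The WT clones were nearly equal for PER3 and fell inside the wider ZEB1-KO range.

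CRY1 and CRY2 encode the cryptochromes, the main inhibitors of the ARNTL and CLOCK pair. CRY1 was at 15.3, 17.5 and 17.8 CPM in ZEB1-KO clones and at 23.2, 14.7 and 24.3 CPM in WT clones, a log2 fold change of -0.30 ± 0.26 (SE), with a range of -0.48 to -0.16 when any 1 library was left out. WT replicate 2 lay below all ZEB1-KO clones, and the other two WT clones lay above them. CRY2 was at 1.70, 4.05 and 2.05 CPM in ZEB1-KO clones and at 2.20, 1.70 and 2.59 CPM in WT clones, a log2 fold change of 0.28 ± 0.42 (SE). That value rested on ZEB1-KO replicate 2, without which it was -0.20. CRY2 made up 7.71% to 14.8% of the summed cryptochrome TPM in ZEB1-KO clones and 6.67% to 8.02% in WT clones. Summed over the families, the PER genes held 44.6%, 50.6% and 50.0% of the PER and CRY TPM in ZEB1-KO replicates 1, 2 and 3, against 33.6%, 43.5% and 34.0% in WT replicates 1, 2 and 3, so that these shares did not overlap, by a narrow margin.

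For ARNTL and CLOCK, the activators, the groups overlapped in CPM. CLOCK was at 40.7, 34.4 and 37.9 CPM in ZEB1-KO clones and at 40.0, 45.3 and 34.0 CPM in WT clones, a log2 fold change of -0.08 ± 0.21 (SE). ARNTL was at 18.0, 32.2 and 12.4 CPM in ZEB1-KO clones and at 17.8, 28.3 and 13.0 CPM in WT clones, a log2 fold change of 0.08 ± 0.41 (SE). For ARNTL the clones of 1 group differed more from one another than the group means did. Its log2 fold change turned to -0.38 without ZEB1-KO replicate 2 and was 0.45 without WT replicate 2, each the highest clone of its group. TMEM165, which overlaps CLOCK on the opposite strand, had a log2 fold change of 0.15 (SE 0.20).

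In counts over the 10 genes, 3 were higher and 1 was lower in ZEB1-KO clones with no overlap between groups in CPM, where 11.9% of the 13659 genes tested were higher and 11.7% lower without overlap. An absolute log2 fold change of at least 1 was found for 3 of the 10, against 12% of all genes. At an adjusted p below 0.05 in edgeR's quasi-likelihood test over all genes, 0 of the 10 were called, beside 0.176% of all genes. At an unadjusted p below 0.05 there were 4, beside 17.7% of all genes, and DESeq2 called 2 (BHLHE41 and NR1D1), beside 7.12%. BHLHE41 was also the 1 member called by edgeR's likelihood ratio test, beside 4.52% of genes, without a filter, beside 0.667%, and by limma on log2(TPM + 0.1), beside 0.956%. The authors' deposited table listed all 10 and had BHLHE41 alone below an adjusted p of 0.05, beside 4.75% of its genes. Since this contrast was known when the genes were chosen, nothing is read from these shares. The median log2 fold change was 0.28 over the 10 genes and -0.01 over all genes tested.

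On the TPM scale the median over genes lay above 0, with a log2 difference of 0.23 in ZEB1-KO over WT clones for log2(TPM + 1) over the 9828 genes averaging 1 TPM or more, and 0.20 over all 11013 listed genes. Of these, 23.3% were higher in ZEB1-KO clones without overlap, against 4.78% lower. Of the 10 genes, 5 were higher without overlap on that scale (PER1 and CLOCK beside BHLHE40, NR1D1 and PER2) and BHLHE41 was lower. The separation of PER1 and CLOCK in TPM thus comes with a shift of the table's median, and it was absent in CPM. For CLOCK the TPM values were 5.95, 5.72 and 5.66 in ZEB1-KO clones and 5.58, 5.29 and 4.29 in WT clones.

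Levels were ranked across genes in TPM. In ZEB1-KO clones the order of means was ARNTL (12.5 TPM), CRY1 (8.78), CLOCK (5.77), PER2 (4.19), PER3 (3.84), BHLHE40 (3.82), NR1D1 (2.03), PER1 (1.33), CRY2 (1.04) and BHLHE41 (0.0760). In WT clones it was ARNTL (9.41 TPM), CRY1 (9.01), CLOCK (5.05), PER3 (2.58), PER2 (2.24), BHLHE41 (2.03), BHLHE40 (0.898), CRY2 (0.705), PER1 (0.680) and NR1D1 (0.584). ARNTL, CRY1 and CLOCK thus headed both orders. In ZEB1-KO clones the neighbours that overlapped were ARNTL with CRY1, PER2 with PER3, PER3 with BHLHE40, and PER1 with CRY2. In WT clones ARNTL overlapped CRY1, and from PER3 down each gene overlapped the next. Even the highest, ARNTL, lay above only 56.5% of the 11013 listed genes by its mean in ZEB1-KO clones and 55.7% in WT clones. Among those genes, which leave out many of the 26334 counted symbols, the clock genes were of middle to low abundance.

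The spread between clones of 1 group does not use the contrast, and it differed by gene. In WT clones, the SD of log2 CPM was 1.72 for BHLHE40, above that of 98.2% of genes tested, and 0.85 for BHLHE41, above 90.6%. NR1D1 and PER1 also spread widely among WT clones, with SDs of 0.68 and 0.62, above 85.3% and 82.2% of genes. Few counts add to such spreads, with 14, 53 and 98 for BHLHE40 and 66, 19 and 31 for NR1D1 in WT clones. The percentages compare these genes with genes of all levels. PER3 was among the steadiest genes of the WT clones, with an SD of 0.05, above only 1.98% of genes. In ZEB1-KO clones the order changed, with an SD of 1.42 for BHLHE41, where few counts add to the spread, 0.69 for ARNTL and 0.64 for CRY2, and 0.12 for each of CLOCK, PER1 and CRY1. The median SD was 0.35 over the 10 genes and 0.37 over all genes in ZEB1-KO clones, and 0.48 and 0.32 in WT clones. With 1 clone of the group left out, the members' medians were 0.31, 0.17 and 0.42 in ZEB1-KO clones (without replicates 1, 2 and 3). In WT clones they were 0.50, 0.19 and 0.31 (in the same order). These values rest on fewer clones, and medians over all genes were not computed for the same settings.

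**Figure D3:**
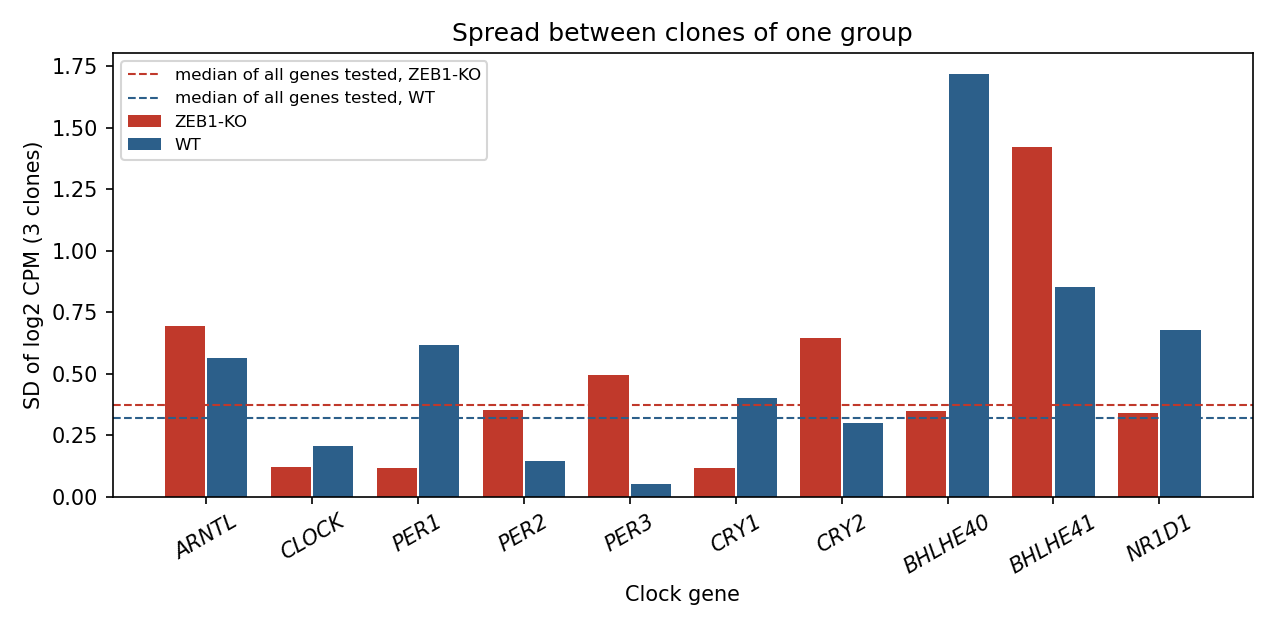
SD of log2 CPM over the 3 clones of each group for each clock gene, ZEB1-KO bars left (red) and WT bars right (blue), with dashed lines at the median over all genes tested. BHLHE40 reaches 1.72 in WT clones and BHLHE41 reaches 1.42 in ZEB1-KO clones, while CLOCK stays below both medians.

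The 3 clock genes with the highest mean CPM were CLOCK, ARNTL and CRY1, and the genes whose log2 CPM, centred on its own mean, lay nearest over the 6 libraries were sought among all genes tested. Nearest to CLOCK were CSNK1G1, a casein kinase gene, TP53I3 and ARHGEF26-AS1, at a root mean square difference of 0.05, 0.05 and 0.07 on the log2 scale, against a median of 0.42 over all genes. ARNTL lay nearest to RERE, GYS1 (muscle glycogen synthase) and NADK (NAD kinase), at 0.09, 0.10 and 0.13, against a median of 0.65. CRY1 lay nearest to DHPS (deoxyhypusine synthase), TSEN34 and PTTG1IP, at 0.04, 0.07 and 0.07, against a median of 0.48. With 13659 genes and 6 libraries, near matches of this kind are a description only.

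Another 27 genes that act with the clock were listed as well, in 4 groups, and 22 of them entered the test. None passed an adjusted p below 0.05 in edgeR's quasi-likelihood test, in either direction, beside 0.176% of all genes tested. At so low a share, 0 calls among these genes, or in any of the 4 groups, says little about them. At an unadjusted p below 0.05, 3 were higher and 1 lower, where 17.7% of all genes stood. DESeq2 called 1 (WDR5), beside 7.12% of all genes, and edgeR's likelihood ratio test called 1 (USP2), beside 4.52%. The median log2 fold change of the 22 was 0.11, with 15 above and 7 below 0.

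Among activators and nuclear receptors, 4 of 5 were tested and 0 were called. NR1D2, which encodes REV-ERB-beta, had a log2 fold change of 0.07 ± 0.21 (SE) (adjusted p = 0.896), at 30.4 CPM in ZEB1-KO and 29.1 CPM in WT clones. The difference between NR1D1 and NR1D2 in response was not tested. NKIRAS1, which overlaps NR1D2 on the opposite strand in GENCODE 29, had 6421 counts over all libraries. Its part in the NR1D2 counts was not tested. NPAS2, the paralog of CLOCK, had 103, 25 and 62 counts in ZEB1-KO clones and 12, 15 and 235 counts in WT clones, so that WT replicate 3 held most of its reads. ARNTL2 and RORA had log2 fold changes of 0.13 and 0.05. RORB was at 0 counts in all libraries.

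Output genes of the clock, among them the factors that bind D-boxes (DBP, TEF, HLF and NFIL3), were 4 tested of 6 listed, with 0 called. DBP, a classical direct target of ARNTL and CLOCK, was at 7.27 CPM in ZEB1-KO and 7.47 CPM in WT clones (log2 fold change -0.04, SE 0.27). TEF, NFIL3 and NOCT, the nocturnin gene, had log2 fold changes of 0.40, 0.08 and 0.71. NOCT was at 5.51 CPM in ZEB1-KO and 3.37 CPM in WT clones with an adjusted p of 0.339. HLF and CIART were too low for the test, with at most 14 counts in any library.

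Kinases, ubiquitin ligases and USP2, which set the stability of PER and CRY proteins, had 6 of 7 members tested and 0 called. USP2, a deubiquitinase of clock proteins, was low at 0.816 CPM in ZEB1-KO and 0.211 CPM in WT clones, with 20, 36 and 18 counts against 8, 8 and 5 counts. Its log2 fold change of 1.93 (SE 0.44) had an adjusted p of 0.103, and it is named after its values were seen. CSNK1D, the kinase of PER proteins, had a log2 fold change of 0.52 (SE 0.31, adjusted p = 0.415, edgeR's quasi-likelihood test). It was 0.11 without ZEB1-KO replicate 2, the highest clone at 47.1 CPM. CSNK1E had at most 1 count in any library, and a read-through gene, TPTEP2-CSNK1E, overlaps it in GENCODE 29, so that its count is uncertain.

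Partners and chromatin cofactors of PER and CRY had 8 of 9 members tested and 0 called. WDR5, a subunit of histone methyltransferase complexes, was at 68.2 CPM in ZEB1-KO and 36.8 CPM in WT clones, and differed by 0.89 ± 0.23 (SE) on the log2 scale (adjusted p = 0.115). KDM5A, a histone demethylase that acts with ARNTL and CLOCK, was at 49.0 CPM in ZEB1-KO and 89.2 CPM in WT clones, and differed by -0.86 ± 0.32 (SE) on the log2 scale (adjusted p = 0.216). In both genes the groups did not overlap in CPM. This was not particular to them, since 2 of the 8 tested were higher and 2 lower without overlap. Over the 22 tested genes that act with the clock, 4 were higher and 2 lower without overlap. Of all genes tested, 11.9% were higher and 11.7% lower without overlap. TIMELESS and TIPIN, better known for the replication fork in human cells, had log2 fold changes of -0.14 and -0.15. PASD1 was at 0 counts in all libraries.

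**Figure D4:**
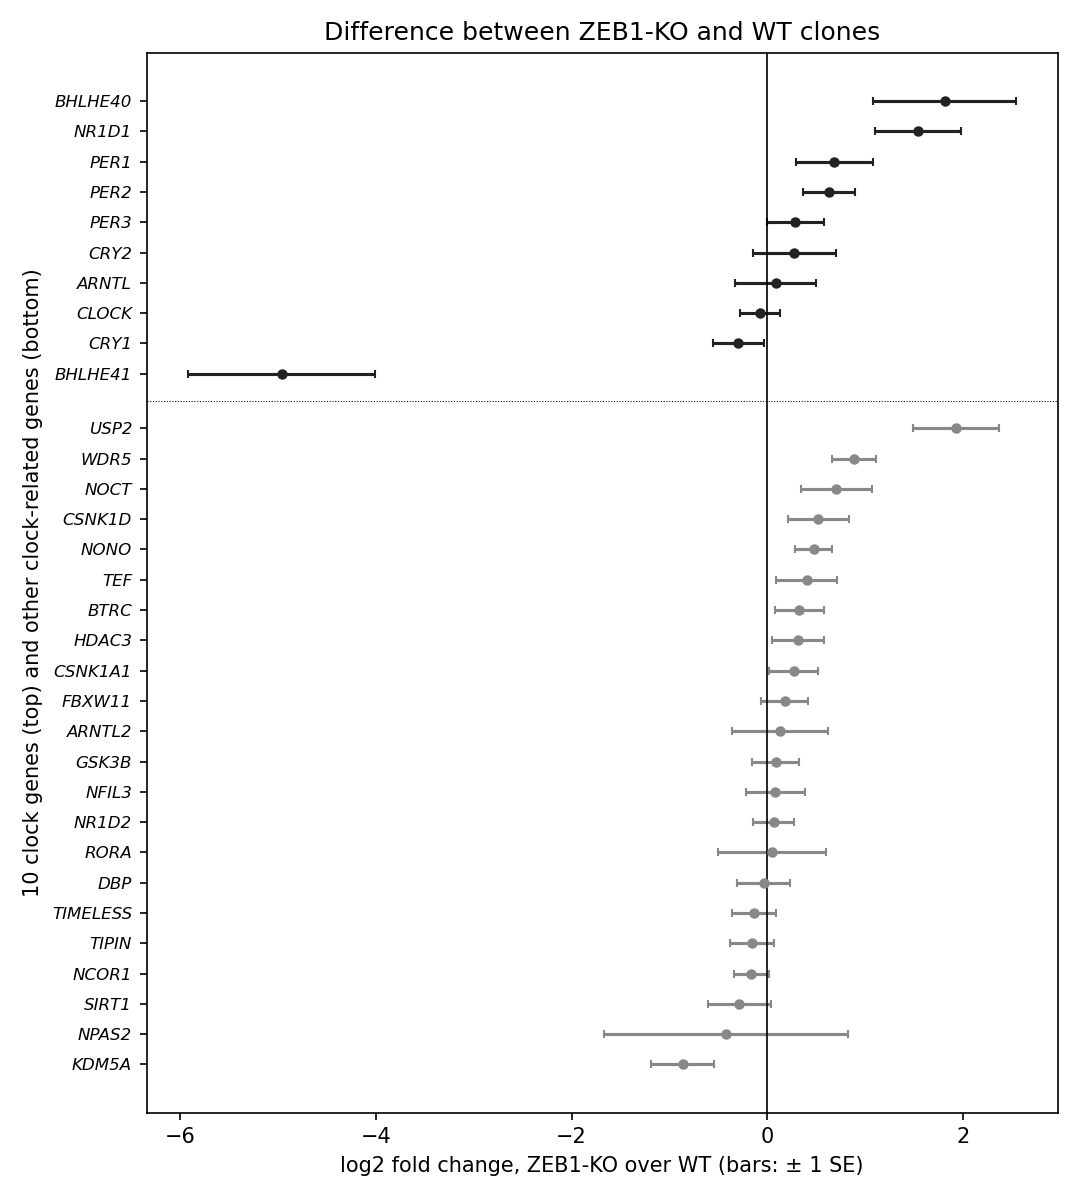
Log2 fold change of ZEB1-KO over WT clones with 1 SE for the 10 clock genes (top, black) and the 22 tested genes that act with the clock (bottom, grey). BHLHE41 at -4.96 lies far from the others, which run from -0.86 for KDM5A to 1.93 for USP2.

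Immediate early genes, which serum and growth signals induce, and hypoxia targets were set beside these values, since PER1, BHLHE40 and BHLHE41 are known to respond to such signals. Of 13 immediate early genes, 12 were tested and 0 passed an adjusted p below 0.05 in the quasi-likelihood test, beside 0.176% of all genes. At an unadjusted p below 0.05, 9 were higher and 1 lower, beside 17.7% of all genes in either direction. Their median log2 fold change was 2.09. JUNB, IER3 and JUN had log2 fold changes of 1.98, 2.52 and -2.06, with adjusted p-values of 0.0761, 0.0834 and 0.0919. The summed level of the 13 was 647.3, 635.8 and 443.4 CPM in ZEB1-KO replicates 1, 2 and 3 and 279.4, 366.2 and 246.0 CPM in WT replicates 1, 2 and 3, without overlap. Their part in the values of PER1, NR1D1 and BHLHE40 was not tested. Of 16 hypoxia targets, 14 were tested and 0 were called, beside the same 0.176%. At an unadjusted p below 0.05, 2 were higher and 2 lower, beside the same 17.7%, and the median log2 fold change was 0.16. DDIT4, PDK1 and ANGPTL4 had log2 fold changes of 1.36, 0.69 and -1.30, with adjusted p-values of 0.0980, 0.211 and 0.187. For both lists together DESeq2 and the likelihood ratio test each called 9, beside 7.12% and 4.52% of all genes.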

How the data were processed

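The deposited count table holds whole reads per gene symbol. The authors' TPM table covers 11013 of these genes and sums to the same total in every library. Their edgeR table gives, per the file headers, a log2 fold change, a mean log2 CPM, a likelihood ratio statistic (a score), a p-value and its adjusted value. The submitters' processing notes name TopHat2 2.1.0, HTSeq 0.6.1, edgeR 3.2.2, hg19 and GRCh37, and no settings. Which filter and gene lengths lie behind the TPM values is not given in these sources. The deposited log2 fold change runs ZEB1-KO over WT, with the same sign as the fit made from the counts for 99.4% of shared genes.

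Deposited counts were fitted with edgeR 4.0.16 in R 4.3.3 (filterByExpr with a minimum count of 10 and a total of 15, TMM, group alone, glmQLFit and glmQLFTest, two-sided, Benjamini-Hochberg adjustment over 13659 genes, threshold 0.05). SEs come from the F statistic. CPM uses TMM-scaled library sizes, and log2 CPM a prior count of 2. The members and gene lists were chosen with earlier results of these data known. The genes named are all 10 members, ZEB1, overlapping genes, the 4 clock-related genes with the largest absolute fold change at 5 CPM or more, the 3 with the smallest p in each signal list, and the 3 nearest patterns of 3 members. Others were named after their values were seen. Alternatives used RLE, upper quartile or no scaling factors, other filters, DESeq2 1.42.0, the likelihood ratio test, limma 3.58.1 on log2 TPM with a pseudocount of 1 or 0.1 (genes averaging 1 TPM or more, or all listed genes), the replicate number as a block, and each library left out. Libraries were separate clones per the series design, and no pair agreed within sampling noise. An exact permutation test of 1 gene cannot go below p = 0.1 with 3 against 3. RefSeq windows were matched by symbol, with ARNTL as BMAL1. No protein sequences were used here, and some genes of the planned clock-related list are not reported here.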

Additional observations from a re-analysis of the deposited data

How the results depend on the processing

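The fold changes of BHLHE41, BHLHE40, NR1D1, PER1, PER2 and PER3 kept their sign in all 17 alternatives, with ranges of -6.51 to -1.43, 1.31 to 2.83, 0.93 to 1.85, 0.45 to 1.09, 0.51 to 0.85 and 0.05 to 0.51 on the log2 scale. The smallest BHLHE41 value came from log2(TPM + 1), where the pseudocount shrinks low genes. ARNTL, CLOCK, CRY1 and CRY2 changed sign under 2, 5, 3 and 1 alternatives, with the ranges -0.38 to 0.45, -0.17 to 0.20, -0.48 to 0.01 and -0.20 to 0.50. Calls among the 10 members were 0 in the main fit, beside 0.176% of all genes, and 1 without a filter, beside 0.667%. With DESeq2 there were 2, beside 7.12%. The likelihood ratio test and log2(TPM + 0.1) each gave 1, beside 4.52% and 0.956%. BHLHE41 was called in each of these alternatives and NR1D1 with DESeq2. Calls among the other clock genes went from 0 to 1 with DESeq2 (WDR5) and to 1 with the likelihood ratio test (USP2). Calls of the immediate early and hypoxia lists went from 0 to 6 without a filter, 9 with DESeq2, 9 with the likelihood ratio test, 3 with log2(TPM + 1) or log2(TPM + 0.1), and 2 with log2(TPM + 1) and no filter. Over all genes, 24 calls became 134 without a filter, 935 with DESeq2, 617 with the likelihood ratio test, 101 with log2(TPM + 1), 94 with log2(TPM + 0.1), 80 with log2(TPM + 1) and no filter, and 5 to 25 when a library was left out, lowest without WT replicate 3. The cause of these differences was not tested. With library size alone the median of all genes was 0.14, against -0.01. With the replicate number as a block there were 20 calls over all genes (0.146%) and 0 among the 10 members. The SE of ARNTL was 0.24 with the block and 0.41 without it. Deviations of same-numbered clones correlated at 0.02, 0.01 and 0.22, against -0.12 to 0.10 for clones of different numbers. Deviations from a mean of 3 clones cannot decide whether the numbers pair the clones, and they were not treated as pairs in the main fit. The members' median SD of log2 CPM, 0.35 in ZEB1-KO and 0.48 in WT clones, ran from 0.17 to 0.42 and from 0.19 to 0.50 when a library was left out, lowest without replicate 2 of the group concerned.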
